A study of Homo sapiens with 4 samples.

Results

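The genes described here encode the machinery that licenses replication origins and moves the replication fork. They were chosen by name, 48 in number, out of 60617 genes listed in each library, and sorted by role into 10 subgroups. Their transcripts were measured in spheres of U87MG, a long-established human cell line from a glioblastoma, and all 48 passed the filter on low counts that left 17207 genes for testing. One group of spheres was treated for 14 days with abemaciclib, an inhibitor of the kinases CDK4 and CDK6. The other group was untreated and collected at day 14. Both were kept in DMEM/F12 with N2, 2% B27 and the growth factors EGF and bFGF at 20 ng/ml each, and each group had 2 poly-A libraries. The labels state neither a drug dose nor a vehicle for the untreated spheres. They do not say whether replicates came from separate cultures, so the p-values speak to library-to-library spread alone, and part or all of that spread may be technical.

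An origin is licensed in G1 phase, when the origin recognition complex, CDC6 and CDT1 load the ring-shaped MCM2-7 helicase onto DNA. The helicase is switched on in S phase by CDC45 and the GINS complex. Polymerase alpha-primase then lays down primers, polymerases delta and epsilon extend them, and the clamp PCNA, its loader RFC and the nucleases and ligase of the lagging strand complete the copy. Many of these genes are textbook targets of the E2F factors, which the retinoblastoma protein holds in check until CDK4 and CDK6 phosphorylate it. U87MG is known to lack the CDKN2A locus, which encodes an inhibitor of those kinases, and both groups share that loss.

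The libraries held between 23684260 and 33418075 expected counts, the estimated reads per gene. At the depths after scaling, 3 counts corresponded to 0.0886 to 0.125 CPM (counts scaled to the size of the library), well under any value of the 48 genes. The lowest member count in any library was 53.25. CDKN2A had 0 counts in all 4 libraries, and its neighbours CDKN2B and MTAP had at most 1. Of the markers listed for the glioma line, VIM, NES and CD44 were abundant, whereas SOX2 had at most 12 counts, GFAP at most 10 and S100B at most 3. Of the 8 tested, 7 fell and 1, SOX2, rose, and the summed level of the list was 5007 and 5058 CPM with abemaciclib, against 7871 and 7279 CPM in untreated spheres. CD44 fell by 1.48 on the log2 scale, PDGFRA by 1.28 and VIM by 0.45. Of 14 markers of other cell types, 10 were tested, of which 6 rose and 3 fell, and AIF1 and MOG were at 0 in every library. Their summed level was 1183 and 1155 CPM with abemaciclib, against 610.7 and 599.6 CPM in untreated spheres, most of it CD68. Of the 6 that rose, PTPRC had at most 18 counts in any library, KRT5 at most 16 and MBP at most 33. CD68 rose 2.14-fold, EPCAM 2.25-fold and ACTA2 1.09-fold. The 3 that fell were PECAM1, KRT8 and SYT1, with log2 fold changes of -3.135, -1.391 and -0.75. PECAM1 had 33 and 31 counts with abemaciclib, against 264 and 320 in untreated spheres. By the rule given below, 38% of all genes tested rose and 39.3% fell. Mitochondrially encoded genes took 11.8% and 11.7% of the counts with abemaciclib and 4.27% and 4.66% in untreated spheres. The part of these shifts in the results below was not tested. With the mitochondrial genes left out, the member calls stood at 37 higher and 3 lower. That fit hardly moved the fold changes (median over all genes -0.011, against -0.012 in the main fit), so it cannot decide the question.

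Most replication genes had more transcript in the treated spheres. Of the 48 members, 37 rose and 3 fell after abemaciclib, and 8 did not pass the threshold (edgeR quasi-likelihood test, two-sided, Benjamini-Hochberg adjusted p under 0.05 over all genes). Among all genes tested, 38% rose and 39.3% fell by the same rule, 77.3% in all, so a call by itself was common in this comparison and the tilt of the members was upward. A rise of at least 2-fold was seen in 18 members, against 13.8% of all genes. A fall of that size was seen in 0 members, against 17.4% of all genes. With an unadjusted p under 0.05 that count was also 0, and with DESeq2 it was 0. The median log2 fold change was 0.72 over the 48 members and -0.01 over all genes. In 39 members both treated libraries lay above both untreated ones, and in 4 both lay below. The same held for 43.4% and 44.5% of all genes.

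Summed over the 48 genes, the level was 1808 and 1835 CPM with abemaciclib, against 997.2 and 985 CPM in untreated spheres, a 1.84-fold ratio of means. Before scaling, these genes held 0.184% and 0.187% of all counts in treated spheres and 0.098% and 0.0965% in untreated spheres. In bulk RNA, a change in the share of cells of a type and a change in RNA per cell cannot be told apart. Most markers on a list of 15 mitotic genes moved the other way. Of these, 1 rose, 12 fell and 2 did not pass the threshold, beside 38% of all genes higher and 39.3% lower. With DESeq2, 1 was called higher and 9 lower. The summed level of the list was 252.6 and 239.6 CPM with abemaciclib against 382.5 and 362.4 CPM in untreated spheres. The one that rose was CCNB1, a mitotic cyclin, with a log2 fold change of 0.48 ± 0.05 (SE). Whether the cell cycle distribution had a part in the replication gene levels was not tested.

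**Figure D1:**
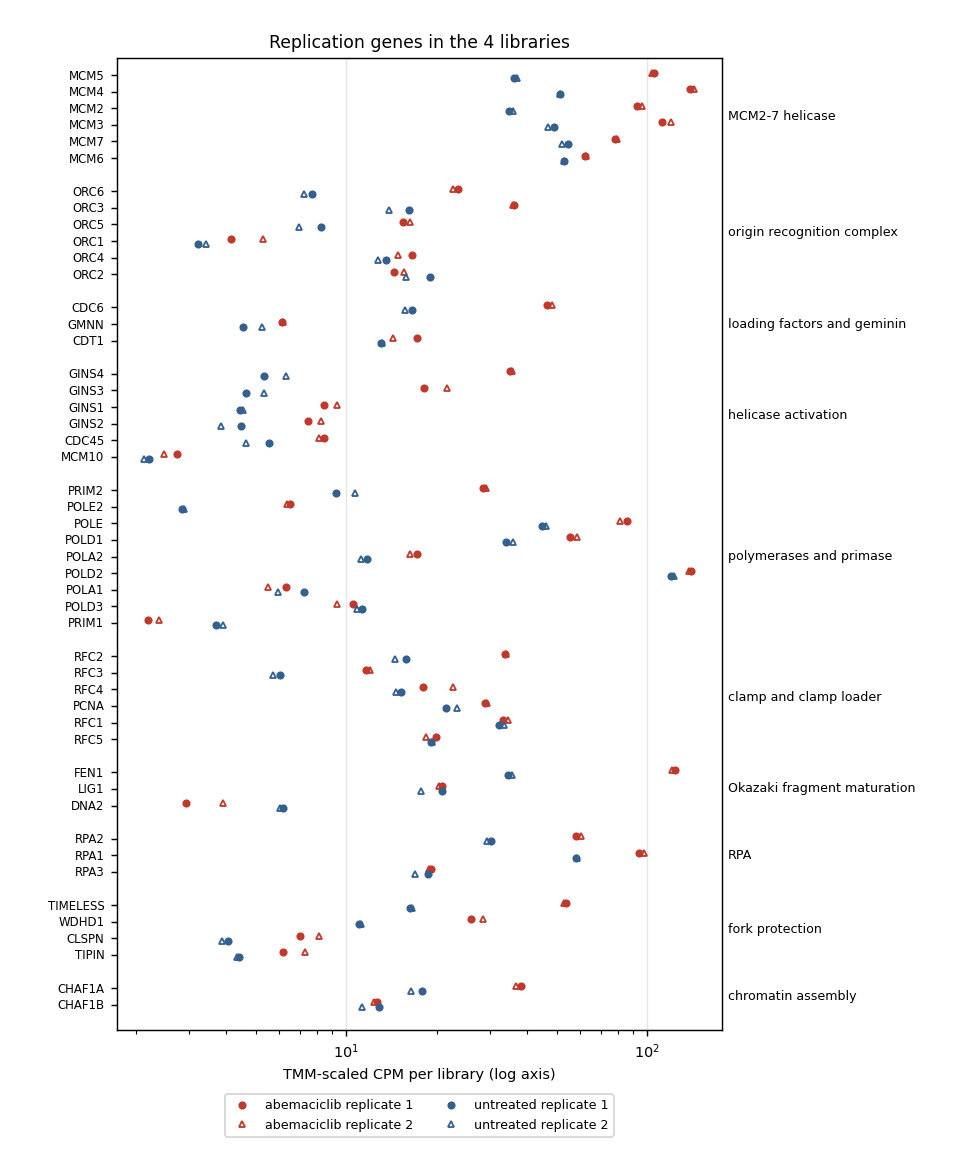
TMM-scaled CPM of the 48 replication genes in each library on a log axis, abemaciclib (red) drawn just above untreated (blue) for each gene, circles for replicate 1 and triangles for replicate 2. The treated libraries lie to the right of the untreated ones for 39 genes and to the left for 4.

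**Figure D2:**
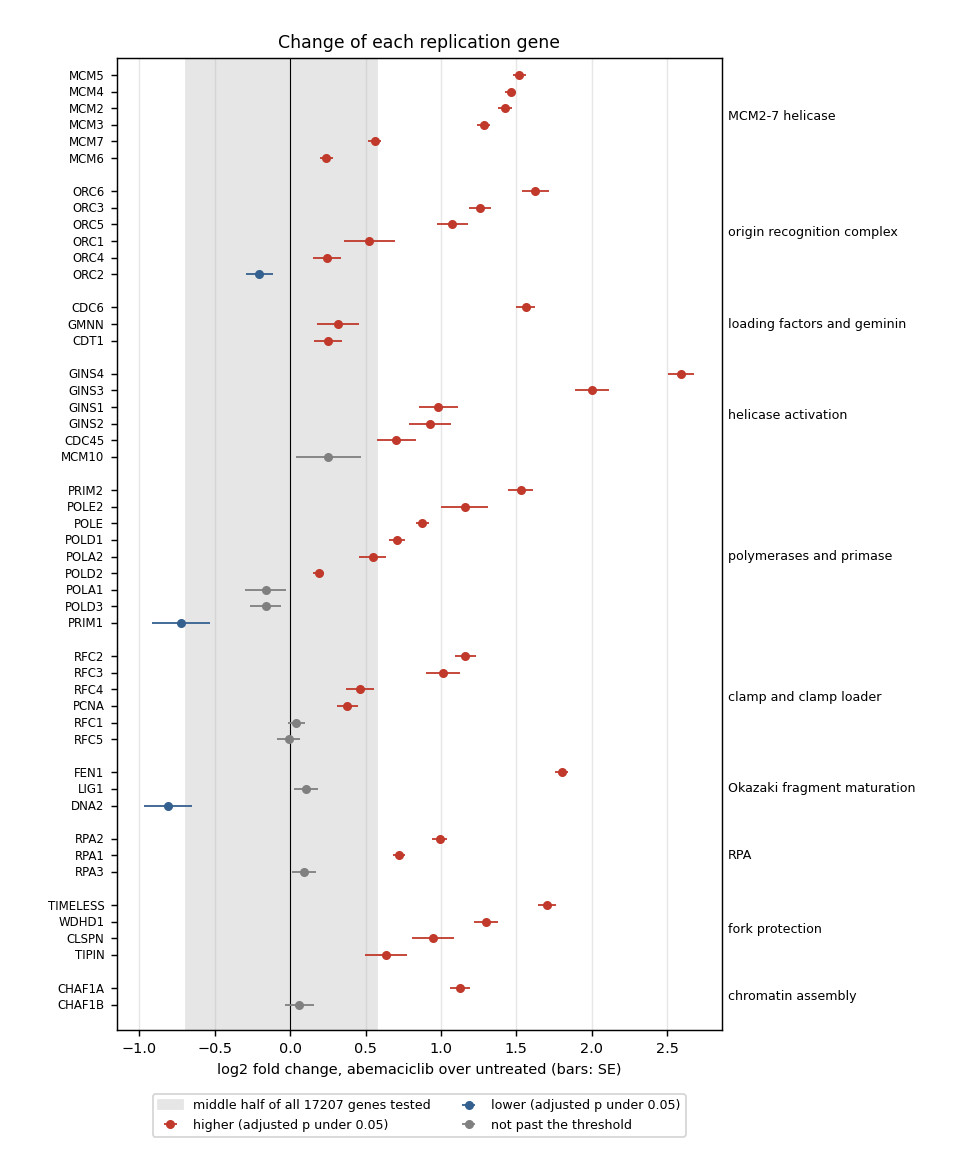
Log2 fold change (abemaciclib over untreated) of each gene with its SE, grouped by role, red for genes called higher, blue for lower and grey for those not past the threshold. The grey band spans the 25th to 75th percentile of all 17207 genes tested, from -0.69 to 0.58, and 4 of 6 MCM genes and all 4 fork protection genes lie to its right.

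Promoters are shown for the members that rose and fell furthest among those with a RefSeq entry, because many replication genes are known E2F targets. They let the letters be compared between genes that rose and genes that fell. RefSeq promoters (GRCh38.p14, 250 bases before to 50 after a transcript start) were matched by symbol for 41 of the 48 genes, with 51 starts in all. The others were DNA2, which fell furthest of the 48, GINS4, which rose furthest, and MCM4, MCM5, POLD3, RPA2 and RPA3. They were searched on both strands for an E2F core (TTCCCGC or TTCGCGC, and also TTGCCGC or TTGGCGC), for CCAAT, the NF-Y box, and for a CHR core (TTTGAA or TTCGAA), the element of late cell cycle genes. E2F cores and CCAAT are in capitals, on whichever strand they lie, and an E2F core and a CCAAT share 1 base in PRIM1. They also share 4 bases in CHAF1A, MCM7, ORC1 and POLE. The 3 members that rose furthest among those with an entry come first, and PRIM1 and ORC2, which fell, come after them. Neither fall was called under every alternative fit. ORC2 did not pass the threshold in 7 of 10, and PRIM1 did not pass with the DESeq2 Wald test (adjusted p = 0.0657).
GINS3 (chr16:58392221-58392520, plus strand): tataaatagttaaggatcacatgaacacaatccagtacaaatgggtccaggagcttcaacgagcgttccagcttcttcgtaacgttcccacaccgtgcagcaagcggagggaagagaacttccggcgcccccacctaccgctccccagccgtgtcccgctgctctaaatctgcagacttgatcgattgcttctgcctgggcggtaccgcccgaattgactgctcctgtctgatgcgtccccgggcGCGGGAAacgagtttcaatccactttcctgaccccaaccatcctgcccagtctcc
FEN1 (chr11:61792661-61792960, plus strand): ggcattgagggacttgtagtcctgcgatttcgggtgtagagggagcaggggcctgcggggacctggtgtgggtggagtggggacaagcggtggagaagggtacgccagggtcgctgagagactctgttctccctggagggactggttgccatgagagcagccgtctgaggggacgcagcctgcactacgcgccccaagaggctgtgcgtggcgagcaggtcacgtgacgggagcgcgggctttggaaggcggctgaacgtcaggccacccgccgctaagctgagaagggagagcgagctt
TIMELESS (chr12:56449377-56449676, minus strand): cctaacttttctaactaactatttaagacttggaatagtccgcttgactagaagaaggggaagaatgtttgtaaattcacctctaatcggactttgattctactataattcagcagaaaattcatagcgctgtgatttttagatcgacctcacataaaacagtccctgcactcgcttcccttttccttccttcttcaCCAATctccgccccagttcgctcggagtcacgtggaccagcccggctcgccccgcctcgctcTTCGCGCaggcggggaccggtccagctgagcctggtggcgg
PRIM1 (chr12:56752274-56752573, minus strand): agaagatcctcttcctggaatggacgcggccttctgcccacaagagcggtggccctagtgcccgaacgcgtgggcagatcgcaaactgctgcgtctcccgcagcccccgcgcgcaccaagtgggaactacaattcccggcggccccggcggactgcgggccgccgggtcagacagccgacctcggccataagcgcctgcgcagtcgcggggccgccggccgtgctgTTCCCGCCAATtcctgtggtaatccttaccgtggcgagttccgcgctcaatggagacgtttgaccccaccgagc
ORC2 (chr2:200963611-200963910, minus strand): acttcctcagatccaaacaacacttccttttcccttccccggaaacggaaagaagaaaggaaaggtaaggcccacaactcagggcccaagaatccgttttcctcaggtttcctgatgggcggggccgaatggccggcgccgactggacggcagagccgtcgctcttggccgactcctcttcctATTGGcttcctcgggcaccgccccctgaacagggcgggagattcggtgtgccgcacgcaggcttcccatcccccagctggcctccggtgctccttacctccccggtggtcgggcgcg

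GINS3 has a single E2F core close to its start, on the strand opposite to the gene. FEN1 has neither an E2F core nor a CCAAT in this window. TIMELESS has 1 CCAAT and 1 E2F core. PRIM1, which fell, also has 1 of each, and ORC2 has 1 CCAAT and no E2F core. For a contrast chosen after their values were seen, 2 helicase subunits are added. MCM3 rose 2.43-fold and MCM6 1.18-fold, and both promoters hold several cores. In MCM6 the E2F matches on the 2 strands overlap within each of 2 stretches.
MCM3 (chr6:52284693-52284992, minus strand): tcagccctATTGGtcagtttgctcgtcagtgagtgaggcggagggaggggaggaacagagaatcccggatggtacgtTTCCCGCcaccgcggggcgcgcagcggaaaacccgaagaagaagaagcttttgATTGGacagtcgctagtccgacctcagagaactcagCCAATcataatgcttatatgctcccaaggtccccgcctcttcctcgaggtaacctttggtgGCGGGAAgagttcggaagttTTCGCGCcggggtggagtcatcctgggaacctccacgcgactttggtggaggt
MCM6 (chr2:135876394-135876693, minus strand): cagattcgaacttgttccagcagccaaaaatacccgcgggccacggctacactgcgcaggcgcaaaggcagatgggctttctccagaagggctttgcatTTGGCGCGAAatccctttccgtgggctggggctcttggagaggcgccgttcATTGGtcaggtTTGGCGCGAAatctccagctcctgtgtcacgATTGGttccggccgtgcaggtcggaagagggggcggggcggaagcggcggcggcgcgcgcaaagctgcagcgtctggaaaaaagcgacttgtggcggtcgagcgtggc

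An E2F core lay in the promoter of 31 of the 41 matched genes (75.6%), with all their starts counted. The same held for 23.7% of the genes tested that had an entry. By single starts the shares were 62.7% of the members' promoters, 18% of the promoters of all genes tested and 13% of all 35116 promoters in the table. CCAAT was found for 25 of the 41 members (61%), against 43.1% of the genes tested. A CHR core was found for 1 of the 41 (2.44%), MCM6, against 16.2% of the genes tested. Of the 52 E2F matches in the members, 33 (63.5%) began within 50 bases of the start, against 33.5% of the matches in all promoters. An E2F core was found in 11 of 15 matched members that rose at least 2-fold (73.3%) and in 20 of the other 26 (76.9%). CCAAT was found in 6 of those 15 (40%) and in 19 of the other 26 (73.1%). These shares are descriptions of letters in a window, and no binding was measured here.

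**Figure D3:**
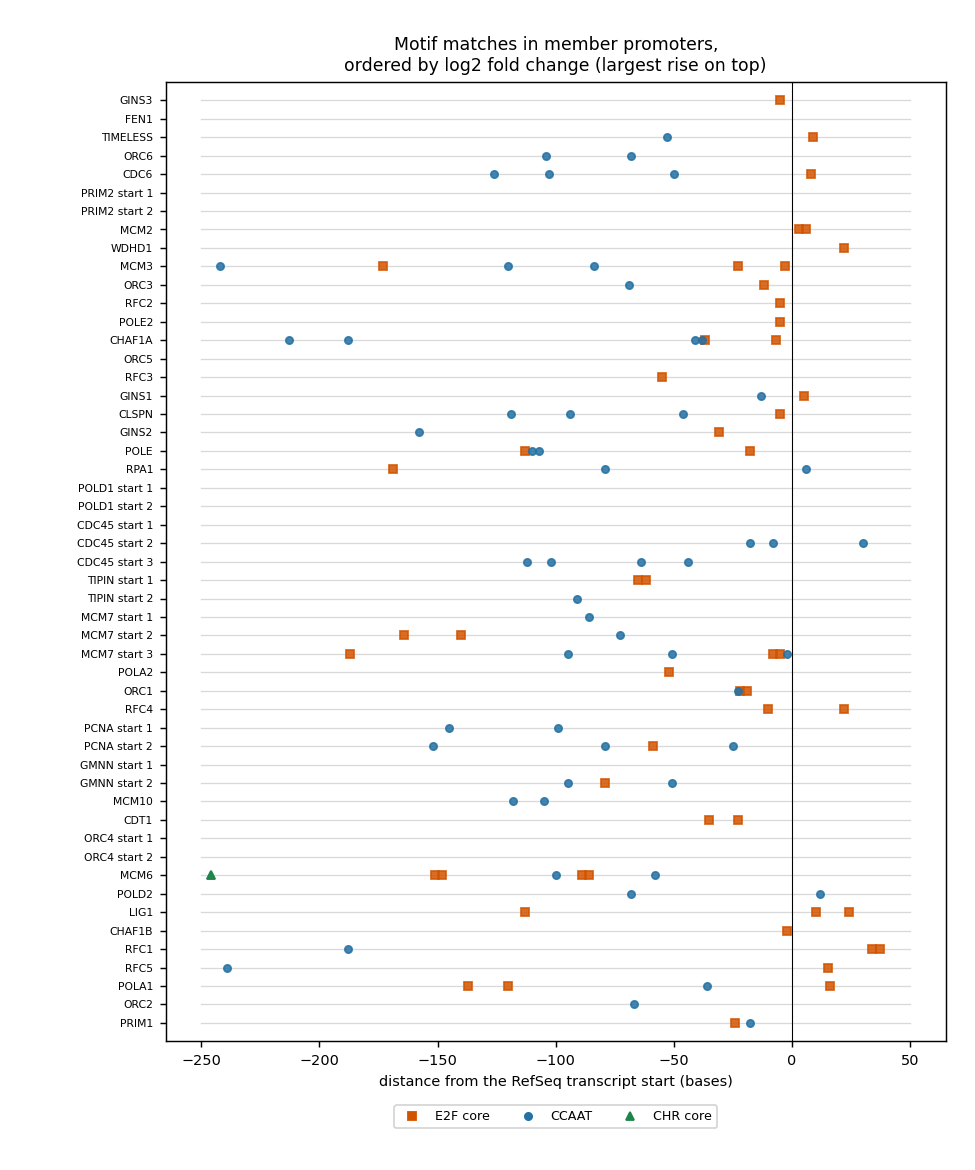
Distance in bases from the RefSeq start to each E2F core (orange squares), CCAAT (blue circles) and CHR core (green triangle) in 51 promoters of 41 members, genes ordered from the largest rise (top) to the largest fall (bottom). E2F cores gather near the start, and they appear along the whole order, from GINS3 at the top to PRIM1 at the bottom.

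The MCM2-7 helicase, the motor that unwinds DNA at the fork, was higher throughout: all 6 subunit genes rose, with a median log2 fold change of 1.35. MCM5 had 105.2 and 103.8 CPM with abemaciclib, against 36.0 and 36.9 CPM in untreated spheres (log2 fold change 1.52 ± 0.04). MCM4 had 138.8 and 143 CPM with abemaciclib and 51.1 and 51.3 CPM in untreated spheres (1.46 ± 0.04). MCM2 had 92.8 and 96.2 CPM with abemaciclib and 34.7 and 35.7 CPM in untreated spheres (1.42 ± 0.04). In each of these genes the treated libraries lay more than 2-fold above the untreated ones, and replicates differed by only a few percent. MCM3 followed with 111.8 and 120.3 CPM in treated and 49.1 and 46.7 CPM in untreated spheres (1.28 ± 0.04). The other two had smaller values. MCM7 had 78.0 and 79.3 CPM with abemaciclib against 54.7 and 52.2 CPM in untreated spheres (0.56 ± 0.04), and MCM6 had 62.1 and 62.6 CPM with abemaciclib and 52.9 and 52.8 CPM in untreated spheres (0.24 ± 0.04). The groups did not overlap for either gene. The edgeR adjusted p was 1.66e-05 for MCM6 and 3.94e-13 or less for the other 5.

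The origin recognition complex, the ATPase that marks origins and receives the helicase, split in its response, with 5 subunit genes called higher and 1 lower. ORC6 had 23.6 and 22.6 CPM with abemaciclib, against 7.7 and 7.24 CPM in untreated spheres (log2 fold change 1.63 ± 0.09). ORC3 had 36.0 and 35.9 CPM with abemaciclib and 16.2 and 13.9 CPM in untreated spheres (1.26 ± 0.07), and ORC5 had 15.5 and 16.3 CPM with abemaciclib and 8.22 and 7.0 CPM in untreated spheres (1.07 ± 0.10). These 3 subunits at least doubled, with groups far apart. ORC1, the largest subunit, was scarce, at 4.15 and 5.31 CPM with abemaciclib and 3.22 and 3.42 CPM in untreated spheres (0.52 ± 0.17). Its edgeR adjusted p of 0.00646 became 0.18 without abemaciclib replicate 2 and 0.137 with DESeq2. ORC4 had 16.6 and 14.8 CPM with abemaciclib and 13.6 and 12.8 CPM in untreated spheres (0.25 ± 0.09, edgeR adjusted p = 0.0156), and lost its call without abemaciclib replicate 1 (adjusted p = 0.132), without untreated replicate 2 (0.106) and with DESeq2 (0.169). ORC2 had 14.5 and 15.6 CPM with abemaciclib and 19.0 and 15.9 CPM in untreated spheres, so that the nearest libraries of the groups almost met. Its log2 fold change of -0.20 ± 0.09 passed narrowly (edgeR adjusted p = 0.043) and did not pass in 7 of 10 alternatives, among them the fit without untreated replicate 1 (-0.07, adjusted p = 0.55). Without untreated replicate 2 it was -0.34 (adjusted p = 0.00241).

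The loading factors rose unevenly. CDC6, which joins the origin recognition complex to load the helicase, had 46.6 and 48.3 CPM with abemaciclib, against 16.5 and 15.7 CPM in untreated spheres (log2 fold change 1.56 ± 0.06, edgeR adjusted p = 3.92e-20). CDT1, its partner in loading, had 17.2 and 14.3 CPM with abemaciclib and 13.0 and 13.2 CPM in untreated spheres (0.25 ± 0.09, edgeR adjusted p = 0.0174). GMNN, which encodes geminin, the inhibitor of CDT1 in S and G2 phase, had 6.11 and 6.17 CPM with abemaciclib and 4.56 and 5.26 CPM in untreated spheres (0.32 ± 0.14, edgeR adjusted p = 0.0392). CDC6 was 2.95-fold higher, CDT1 1.19-fold and GMNN 1.25-fold. The count ratio of CDC6 to CDT1 was 2.72 and 3.38 with abemaciclib and 1.27 and 1.19 in untreated spheres. That of CDT1 to GMNN was 2.81 and 2.32 with abemaciclib and 2.86 and 2.51 in untreated spheres, with the groups overlapping. These and the ratios below were chosen after the values were seen. Without abemaciclib replicate 1 the adjusted p was 0.261 for CDT1 and 0.0648 for GMNN, and without abemaciclib replicate 2 the log2 fold change of CDT1 was 0.39 (adjusted p = 0.00151). With DESeq2 the adjusted p was 0.163 for CDT1 and 0.281 for GMNN. GMNN also lost its call without abemaciclib replicate 2 (0.113) and without untreated replicate 1 (0.211).

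The genes that switch the loaded helicase on held the largest rises of the 48. GINS4, a subunit of the 4-part GINS complex (chromosome 8, 41529206 to 41545046, GRCh38), had 34.9 and 35.5 CPM with abemaciclib, against 5.33 and 6.29 CPM in untreated spheres. That is a 6.02-fold rise (log2 fold change 2.59 ± 0.09, edgeR adjusted p = 2.65e-22). GINS3 (chromosome 16, 58295080 to 58406144) had 18.2 and 21.7 CPM with abemaciclib and 4.67 and 5.32 CPM in untreated spheres (2.00 ± 0.11). Both lay far above every untreated library. The remaining subunits about doubled: GINS1 had 8.43 and 9.3 CPM with abemaciclib against 4.44 and 4.55 CPM in untreated spheres (0.98 ± 0.13), and GINS2 had 7.48 and 8.24 CPM with abemaciclib and 4.48 and 3.85 CPM in untreated spheres (0.93 ± 0.14). CDC45, which completes the active helicase with MCM2-7 and GINS, had 8.43 and 8.12 CPM with abemaciclib and 5.55 and 4.64 CPM in untreated spheres (0.70 ± 0.13). MCM10, a factor that acts with the activated helicase at origins, had 2.74 and 2.48 CPM with abemaciclib and 2.22 and 2.14 CPM in untreated spheres (0.25 ± 0.22, edgeR adjusted p = 0.284). With 60 to 84 counts per library, MCM10 was among the least covered members. GINS4 overlaps the opposite-strand genes AC009630.1 and AC009630.2, and GINS3 overlaps AC009118.2. Whether the counting used strand is not stated, so part of their reads could be shared.

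The polymerases and primase moved in both directions, with 6 genes higher, 1 lower and 2 not past the threshold. PRIM2, the large subunit of primase (chromosome 6, 57314805 to 57646849), had 28.5 and 29.2 CPM with abemaciclib, against 9.26 and 10.7 CPM in untreated spheres (log2 fold change 1.53 ± 0.08). PRIM1, the catalytic subunit that makes the RNA primer (chromosome 12, 56731596 to 56752373), went the other way, with 2.2 and 2.39 CPM with abemaciclib and 3.7 and 3.91 CPM in untreated spheres (-0.72 ± 0.19, edgeR adjusted p = 0.00107). With DESeq2 the adjusted p of PRIM1 was 0.0657. The count ratio of PRIM2 to PRIM1 was 12.9 and 12.2 with abemaciclib and 2.5 and 2.73 in untreated spheres. PRIM1 overlaps NACA and AC117378.1 on its own strand, and its estimated counts were not whole in any of the 4 libraries. Those of PRIM2, whose exons overlap no other annotated gene, were not whole in 1 library. For PRIM1, how reads were divided between overlapping genes is an uncertainty that the replicates do not show.

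In polymerase alpha, which extends the primer, 1 subunit gene rose and the other did not pass the threshold. POLA2, the accessory subunit, had 17.2 and 16.4 CPM with abemaciclib, against 11.7 and 11.2 CPM in untreated spheres (log2 fold change 0.55 ± 0.09). It overlaps AP000944.2 on its own strand and had no whole count in the 4 libraries, so the same uncertainty holds for it. POLA1, the catalytic subunit, had 6.31 and 5.49 CPM with abemaciclib and 7.22 and 5.96 CPM in untreated spheres (-0.16 ± 0.14, edgeR adjusted p = 0.282), and the groups overlapped. Polymerase epsilon, which copies the leading strand, rose in both subunits among the 48. POLE, its catalytic subunit, had 85.5 and 81.4 CPM with abemaciclib and 44.8 and 45.9 CPM in untreated spheres (0.88 ± 0.04), and POLE2 had 6.52 and 6.35 CPM with abemaciclib and 2.85 and 2.9 CPM in untreated spheres (1.16 ± 0.15). Its small histone-fold subunits, POLE3 (0.74 ± 0.04) and POLE4 (0.71 ± 0.06), taken from the list of neighbouring genes, rose as well. Polymerase delta, which copies the lagging strand, rose in POLD1, the catalytic subunit, with 55.6 and 58.3 CPM in treated and 33.9 and 35.8 CPM in untreated spheres (0.71 ± 0.05). POLD2 rose slightly, with 139.2 and 137.4 CPM with abemaciclib and 120.3 and 122.4 CPM in untreated spheres (0.19 ± 0.03). POLD3 had 10.6 and 9.33 CPM with abemaciclib and 11.3 and 10.9 CPM in untreated spheres (-0.16 ± 0.10, edgeR adjusted p = 0.154). POLD4, the smallest delta subunit, from the list of neighbouring genes, fell to 88.98 and 83.9 CPM with abemaciclib, against 130.1 and 126.4 CPM in untreated spheres (-0.57 ± 0.04, edgeR adjusted p = 9.06e-15).

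The clamp and its loader rose in 4 of 6 genes. PCNA, the sliding clamp that holds polymerases on DNA, had 28.99 and 29.4 CPM with abemaciclib, against 21.5 and 23.3 CPM in untreated spheres (log2 fold change 0.38 ± 0.07, edgeR adjusted p = 8.57e-06). Of the loader, RFC2 had 33.8 and 34.0 CPM with abemaciclib and 15.9 and 14.6 CPM in untreated spheres (1.16 ± 0.07), and RFC3 had 11.7 and 11.96 CPM with abemaciclib and 6.04 and 5.71 CPM in untreated spheres (1.01 ± 0.11). RFC4 had 18.0 and 22.7 CPM with abemaciclib against 15.3 and 14.6 CPM in untreated spheres (0.46 ± 0.09), with a wider gap between its treated replicates than the other subunits. Without abemaciclib replicate 2 its log2 fold change was 0.28 (adjusted p = 0.0181). RFC1, the largest subunit, had 33.2 and 34.4 CPM with abemaciclib and 32.3 and 33.5 CPM in untreated spheres (0.04 ± 0.06, edgeR adjusted p = 0.529). RFC5 had 19.9 and 18.4 CPM with abemaciclib and 19.1 and 19.3 CPM in untreated spheres (-0.01 ± 0.08, edgeR adjusted p = 0.915). Treated and untreated libraries overlapped for RFC1 and RFC5. The pseudogene PCNAP3 had 6 and 2 counts with abemaciclib and 0 and 0 in untreated spheres, few beside the 581 to 996 counts of PCNA.

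The genes that finish Okazaki fragments, the short pieces of the lagging strand, gave 1 rise, 1 fall and 1 without a call. FEN1, the flap endonuclease (chromosome 11, 61792637 to 61797244), had 123.5 and 121.2 CPM with abemaciclib, against 34.6 and 35.6 CPM in untreated spheres. Its log2 fold change of 1.80 ± 0.04 (edgeR adjusted p = 1.73e-26) was the third largest of the 48. DNA2, the nuclease and helicase that cuts long flaps (chromosome 10, 68414064 to 68472121), fell to 2.95 and 3.9 CPM in treated spheres, against 6.15 and 6.05 CPM in untreated spheres (-0.81 ± 0.16, edgeR adjusted p = 2.86e-05). LIG1, the ligase that seals the nicks, had 20.9 and 20.4 CPM with abemaciclib and 20.9 and 17.7 CPM in untreated spheres (0.10 ± 0.08, edgeR adjusted p = 0.241). Without untreated replicate 1 LIG1 passed the threshold (0.22, adjusted p = 0.0305), and without untreated replicate 2 its sign turned (-0.02, adjusted p = 0.872). The count ratio of FEN1 to DNA2 was 41.9 and 31.1 with abemaciclib and 5.63 and 5.88 in untreated spheres. FEN1 shares exon bases with FADS2 on its own strand and with TMEM258 on the other.

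RPA, the trimer that coats single-stranded DNA, rose in its larger subunits. RPA1, which binds the DNA, had 93.7 and 97.3 CPM with abemaciclib, against 57.8 and 58.2 CPM in untreated spheres (log2 fold change 0.72 ± 0.04). RPA2, the subunit that checkpoint kinases phosphorylate, had 57.9 and 60.3 CPM with abemaciclib and 30.3 and 29.3 CPM in untreated spheres (0.99 ± 0.05). RPA3, the smallest, had 19.2 and 18.8 CPM with abemaciclib and 18.7 and 16.9 CPM in untreated spheres (0.09 ± 0.08, edgeR adjusted p = 0.292). The lowest treated library of RPA3 lay above the highest untreated one by less than the gap between the untreated replicates.

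The fork protection genes rose in all 4 cases, with a median log2 fold change of 1.12. TIMELESS, which with TIPIN ties the helicase to the polymerases, had 53.9 and 53.1 CPM with abemaciclib, against 16.3 and 16.5 CPM in untreated spheres (1.70 ± 0.06, edgeR adjusted p = 9.96e-22). TIPIN, its partner, had 6.19 and 7.29 CPM with abemaciclib and 4.41 and 4.34 CPM in untreated spheres (0.64 ± 0.14). WDHD1, which links the helicase to polymerase alpha, had 25.9 and 28.6 CPM with abemaciclib and 11 and 11.2 CPM in untreated spheres (1.297 ± 0.08). CLSPN, the adaptor through which ATR activates CHK1, had 7.02 and 8.12 CPM with abemaciclib and 4.04 and 3.88 CPM in untreated spheres (0.95 ± 0.14). No treated library of these 4 genes reached down to an untreated one. TIPIN overlaps the ribosomal pseudogene RPL9P25 on its own strand.

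The chromatin assembly factor CAF-1, which deposits histones behind the fork, was split between its subunits. CHAF1A, the subunit that binds PCNA, had 38.01 and 36.8 CPM with abemaciclib, against 17.9 and 16.4 CPM in untreated spheres (log2 fold change 1.13 ± 0.07, edgeR adjusted p = 8.76e-16). CHAF1B had 12.7 and 12.4 CPM with abemaciclib and 12.8 and 11.3 CPM in untreated spheres (0.06 ± 0.10, edgeR adjusted p = 0.575), with the groups overlapping.

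Uneven responses within complexes changed the balance between subunit transcripts. Levels of different genes were compared as CPM per kb of annotated exon length. In GINS the highest of the 4 subunits was 3.08 and 2.84 times the lowest with abemaciclib, and 1.5 and 1.13 times in untreated spheres. GINS4 was the highest and GINS1 the lowest in both treated libraries. In polymerase alpha-primase the ratio was 6.76 and 7.22 with abemaciclib and 1.8 and 2.43 in untreated spheres, with PRIM2 highest in both treated libraries. With the longest transcript as the length, the mean ratio was 11.6 with abemaciclib and 3.65 in untreated spheres, where exon length gave 6.99 with abemaciclib and 2.12 in untreated spheres. In the origin recognition complex it was 7.41 and 5.85 with abemaciclib and 4.3 and 3.48 in untreated spheres, and ORC3 was the highest in all 4 libraries. In RPA it was 4.84 and 5.14 with abemaciclib and 2.6 and 2.77 in untreated spheres. In these complexes, then, subunit levels lay further apart in the treated spheres, in both libraries of each group.

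MCM2-7 differed from them. Its ratio was 2.14 and 2.33 with abemaciclib and 2.74 and 2.55 in untreated spheres, so the subunits were slightly closer together in treated spheres. In untreated spheres MCM3, MCM6 and MCM7 stood above MCM2, MCM4 and MCM5, and those 3 lower subunits were among the 4 that rose more than 2-fold. With the longest annotated transcript as the length, MCM2-7 gave nearly the same mean ratio in both groups, 2.17 with abemaciclib and 2.19 in untreated spheres, so this narrowing depends on the length used. In RFC the ratio was 3.77 and 3.7 with abemaciclib and 3.41 and 3.32 in untreated spheres, and with the longest transcript the order of the groups turned, at 4.07 with abemaciclib and 4.22 in untreated spheres on average.

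**Figure D4:**
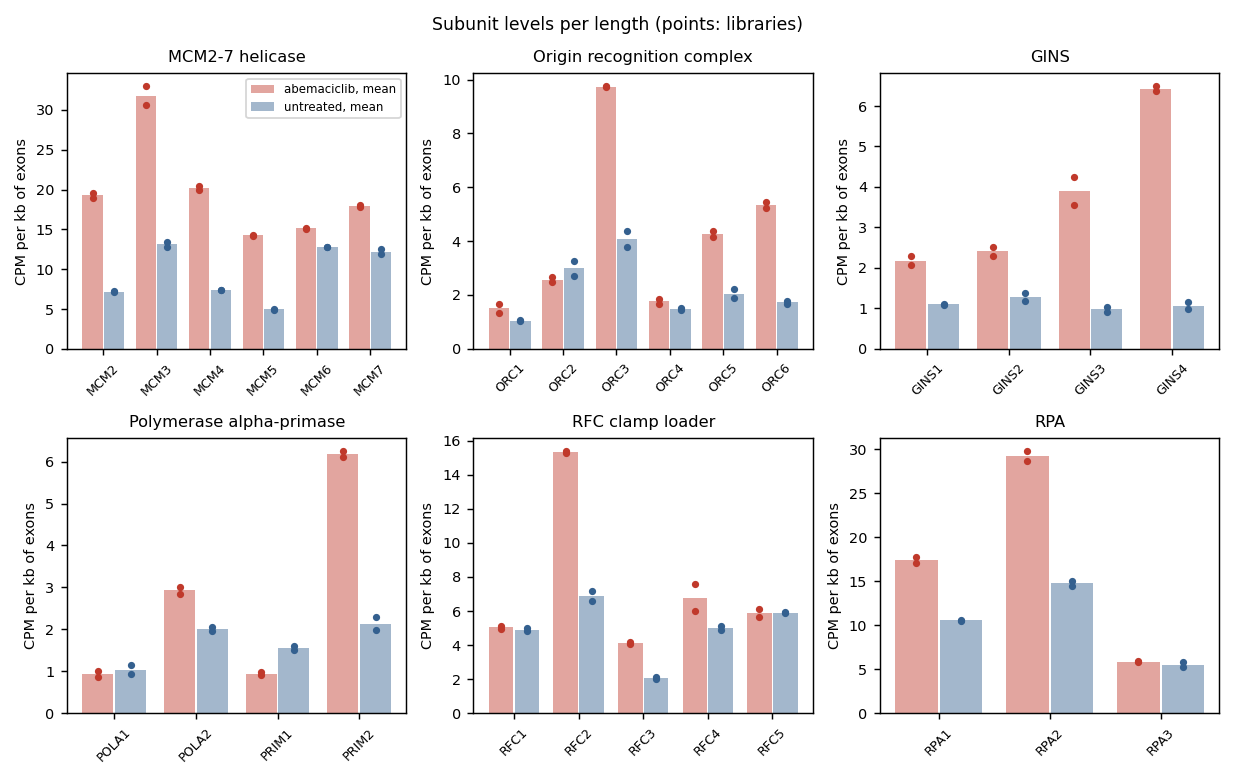
CPM per kb of annotated exons for the subunits of 6 complexes, bars for the mean of 2 libraries and points for each library, abemaciclib (red) left of untreated (blue). GINS4 and PRIM2 stand above their partners in treated spheres at 6.43 and 6.18 CPM per kb, against 1.06 and 2.13 CPM per kb in untreated spheres.

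The order of the members by level also shifted. Per kb of exon length, FEN1 stood first with abemaciclib at 49.4 CPM per kb and 4th in untreated spheres at 14.2 CPM per kb. POLD2 was 2nd with abemaciclib at 37.4 and first in untreated spheres at 32.8 CPM per kb. PCNA was 6th with abemaciclib at 19.9 and 2nd in untreated spheres at 15.2 CPM per kb. These places depend on the length used. Per kb of the longest transcript, POLD2 stood above FEN1 in both groups, at 64.1 against 53.3 CPM per kb with abemaciclib and 56.2 against 15.3 CPM per kb in untreated spheres. In untreated spheres MCM7 (17.3), RPA2 (17.02) and PCNA (16.5) then also stood above FEN1, and MCM3 (14.9) below it. Across the 48 genes the log2 fold change had a Pearson correlation of 0.35 with the log2 mean CPM over the 4 libraries and of 0.07 with log2 exon length. The mean CPM includes the treated libraries that also enter the fold change, so the first correlation is not between independent values. The points share the same libraries, and the values are descriptions over genes.

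Genes that work beside the 48 were described from a further list of 53, all of which passed the filter. Of these, 35 rose, 12 fell and 6 did not pass the threshold, beside 38% of all genes higher and 39.3% lower. Their median was 0.33 on the log2 scale. A rise of at least 2-fold was seen in 7 of the 53, near the 13.8% of all genes, and a fall of that size in 1, TOP2A, beside 17.4% of all genes. DTL, which directs the degradation of CDT1 on PCNA, rose furthest, with 14.3 and 14.5 CPM with abemaciclib against 3.89 and 4.34 CPM in untreated spheres (1.80 ± 0.12). It was followed by the ubiquitin ligase TRAIP, which removes the helicase from DNA (1.36 ± 0.14), and HUS1, a part of the checkpoint clamp (1.24 ± 0.13). TONSL, which reads newly placed histones (1.22 ± 0.06), and DSCC1, a subunit of an alternative clamp loader (1.15 ± 0.16), also rose.

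Topoisomerases, which relieve the twist ahead of the fork, fell in 3 of 3 cases. TOP2A had 16.6 and 16.6 CPM with abemaciclib, against 40.1 and 37.6 CPM in untreated spheres (log2 fold change -1.23 ± 0.07), and TOP2B fell by 0.79 on the same scale. ETAA1, an activator of the ATR kinase (-0.997 ± 0.11), the fork remodeller HLTF (-0.82 ± 0.07) and DONSON, which helps assemble the active helicase (-0.72 ± 0.06), fell as well. TOP2A peaks in G2 and M phase. Of the 15 mitotic markers 12 fell and 1 rose, and whether the fall of TOP2A shares a cause with theirs was not tested. All 5 partners of CDT1 turnover were higher (0.17 to 1.80), beside 38% of all genes. So were all 5 genes of other clamp loaders and clamp partners (0.33 to 1.15) and all 3 of replication termination (0.90 to 1.36). The other subgroups were mixed. Among 12 origin firing and licensing partners 8 were higher and 1 lower, and among 4 polymerase accessory subunits 3 and 1. Histone handling had 5 and 2 of 7, the checkpoint 4 and 3 of 8, and RNase H2 and fork remodelling 1 and 1 of 3 each.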

How the data were processed

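Each library has its own deposited table of expected counts, per the file headers. These are estimates of reads per gene that need not be whole and carry no scaling for depth or length. GRCh38, RSEM 1.3.1 and STAR 2.7.2b are named in the submitters' processing notes. For the annotation and strand setting nothing is given in the sources used here. Between 6.13% and 6.7% of the values were not whole, 5 members among them, and all were rounded for testing.

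In R 4.3.3, edgeR 4.0.16 with limma 3.58.1 fitted group alone, by its quasi-likelihood F test, with filterByExpr, TMM scaling, robust estimation and Benjamini-Hochberg adjustment over 17207 genes. CPM are TMM-scaled. Standard errors were taken as the fold change on the log2 scale over the root of F. DESeq2 1.42.0 was an alternative. Chi-square values per degree of freedom between replicates were 1.95 (abemaciclib) and 3.56 (untreated), beyond counting noise, so each library counted once. Coordinates, lengths and overlaps came from GENCODE release 29 (GRCh38), in which all 48 members were found by identifier. Exons of 21 members overlap another gene. Promoter sequences came from RefSeq.

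The members, subgroups and lists were chosen with earlier results of these data known, so no list received a test. All members are named. Of the 53 neighbouring genes, those given with values are the 5 that rose and the 5 that fell furthest. POLE3, POLE4 and POLD4 were given outside that rule, beside their polymerases. Alternatives were other scalings, no low-count filter, no mitochondrial genes, DESeq2, a replicate block and leaving out each library.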

Additional observations from a re-analysis of the deposited data

How the results depend on the processing

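The count of members called higher was 37 and stayed between 33 and 37 over 10 alternatives. The count called lower was 3, stayed at 2 or 3 in 9 of them and was 1 with DESeq2, where DNA2 alone was called. Leaving out 1 library each gave 34 to 37 higher and 2 to 3 lower members, 16 to 22 at least 2-fold higher and 0 to 1 at least 2-fold lower. Of the 40 called members, 34 were called under every alternative, and the exceptions were CDT1, GMNN, ORC1, ORC2, ORC4 and PRIM1. The direction held for 45 of 48 members under all 10. RFC5 (-0.01) turned to 0.044 with scaling by library size, 0.005 without the low-count filter and 0.006 with DESeq2, and ranged from -0.046 to 0.056 with 1 library left out, positive without abemaciclib replicate 2. Leaving out 1 library gave -0.018 to 0.222 for LIG1 and for the median of the Okazaki fragment genes, and -0.035 to 0.152 for CHAF1B, the negative values without untreated replicate 2. None of these 3 genes had passed the threshold in the fit reported, and the cause was not tested.

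The libraries share replicate numbers 1 and 2, but nothing says that they mark a shared culture or day. Same-numbered libraries deviated from their group means with a correlation of 0.058 across 9605 genes. With the replicate block, 37 members were higher and 2 lower. Depth limits the scarce members most: MCM10 had 60 to 84 counts per library, and its SE was 0.22 on the log2 scale.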
